A study of Mus musculus with 22 samples.

Results

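Klf2, Klf4, Klf5 and Klf9 encode 4 Krüppel-like factors, which were followed on 22 mouse expression arrays. Their probes were taken by gene name in the scanner files, leaving out control spots, which gave 7 of 41174 probes and 4 of 28105 genes. The 4 genes were chosen because earlier results of these data had them differ in their response to 4-hydroxytamoxifen (4OHT), to a GSK inhibitor and to time in culture. Their values along those contrasts are therefore a description and carry no test.

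Krüppel-like factors are transcription factors with a C-terminal zinc finger domain that binds GC-rich and CACCC sequences. In mouse embryonic stem cells Klf2, Klf4 and Klf5 sustain the naive pluripotent state together with Pou5f1, Sox2 and Nanog. Klf4 is a target of LIF and STAT3 signalling and one of the classical reprogramming factors, Klf2 protein is destabilised by ERK phosphorylation, and Klf5 also acts in the trophectoderm of the blastocyst. Klf9 is best known in other tissues as a gene induced by glucocorticoid and thyroid hormones.

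The study asked how primordial germ cells (PGCs), the embryonic precursors of eggs and sperm, turn into pluripotent embryonic germ cells (EGCs) in culture. Each group was 1 array, so no group was replicated. The PGCs came from embryos at E11.5 and were taken uncultured, at day 1 with bFGF, at days 2, 3 and 6 with bFGF, 2i and A83-01, and at day 10, beside an EGC line and an embryonic stem cell (ESC) line. The 2i were PD325901, a MEK inhibitor (1 µM), and CHIR99021, a GSK inhibitor (3 µM), and A83-01 (250 nM) inhibits activin and TGF-beta receptors. The day 10 and EGC labels name no additions. Further day 2 cultures held bFGF with 2i, A83-01 and 4OHT together, with 4OHT, with the GSK inhibitor, with the MEK inhibitor, with A83-01, or alone. The labels give 4OHT (100 nM) for the activation of AKT, and do not name the construct that responds to it. Cells grew in serum replacement medium with LIF. The labels describe the PGCs, their cultures and both lines as cells positive for SSEA-1, a surface sugar of PGCs and pluripotent cells. The remaining arrays held EBRTcH3 ESCs with forced expression of Prdm14, Vasa, Nanos3, Nanos2, Dnd, Blimp-1 or GFP, sorted on GFP, and the parental line, for which no sort is stated. The Blimp-1 and GFP constructs were driven by an EF1a promoter with IRES-GFP and taken at day 2. For the Dnd array the sample source reads End. Whether a line was 1 clone or animals were pooled is not given in the sources used here.

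A level below is the log2 intensity of a probe minus the log2 of its array's 75th percentile, and a difference is that of 2 levels. Levels of different probes are not set against each other. The 75th percentile lay at intensities of 123.8 to 782, and the scanner software called 44.3 to 64.7% of the probes well above background. The culture with 2i, A83-01 and 4OHT had the lowest value of each. The arrays lay on 10 slides, and both 4OHT arrays shared a slide that held no other array, so 4OHT and slide cannot be told apart. All 10 PGC markers and all 7 measured markers of pluripotent lines were well above background on the uncultured PGC, EGC and ESC arrays alike. These counts therefore do not tell the groups apart. The median PGC marker level was 2.03 in PGCs, 1.78 at day 1, 1.37 at day 2, -1.07 at day 3 and 0.05 at day 6. It was 0.89 at day 10, 0.76 in EGCs and 0.46 in ESCs. At day 2 it was -0.79 with A83-01 alone, against 1.06 with bFGF alone. The sorted cultures also carried fibroblast markers: their median level over 10 genes was -2.41 in PGCs, 1.48 at day 1, 1.76 at day 2, 0.41 at day 3, 1.81 at day 6, 0.74 at day 10 and -2.34 in the EGC line. In bulk samples fewer cells of a type and less RNA per cell cannot be told apart.

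The probes differ in base composition, which bears on Klf2. The Klf2 probe with the higher mean level, A_52_P442031, starts at base 524 of the transcript and lies at chr8:74843761-74843820 of mm9 on the plus strand. It has 78.3% G and C, where the median probe of the array has 40% and only 75 of 41174 probes have 70% or more. The other Klf2 probe, A_51_P144264, starts at base 1399, at chr8:74845137-74845196, and has 43.3%. The Klf5 probe A_51_P507290 starts at base 1425, spans an intron between chr14:99702656 and 99712388, and has 50%. The Klf9 probe A_52_P675996 starts at base 1198, at chr19:23239337-23239396, and has 53.3%. The files do not say whether a probe lies in coding sequence. Sequences of the GC-rich Klf2 probe and of a mid-range Klf5 and Klf9 probe are shown to let the composition be seen, 5′ to 3′, with the longest unbroken run of G and C in capitals.
Klf2 A_52_P442031: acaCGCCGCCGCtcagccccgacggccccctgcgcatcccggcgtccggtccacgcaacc
Klf5 A_51_P507290: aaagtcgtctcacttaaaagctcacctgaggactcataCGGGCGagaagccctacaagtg
Klf9 A_52_P675996: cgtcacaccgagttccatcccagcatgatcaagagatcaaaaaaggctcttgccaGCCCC
The run is 9 bases in Klf2, 6 in Klf5 and 5 in Klf9. Klf4 had a single probe, A_51_P213544, which starts at base 2160, at chr4:55540833-55540892 on the minus strand, with 45.0% G and C. The Klf9 probe with the higher mean level, A_51_P412200, starts at base 1999, at chr19:23240138-23240197, with 36.7%, and A_52_P675996 is called the second below. The second Klf5 probe, A_52_P54463, starts at base 2443 of another accession, at chr14:99704137-99704196, with 35%. By these positions it lies inside the interval that the Klf5 probe A_51_P507290 spans. Whether both Klf5 probes read the same transcript was not tested.

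The 2 Klf9 probes moved together over the 22 arrays (Pearson r = 0.99), with a difference between them of -0.38 to 0.84. The 2 Klf2 probes did not: r was 0.553 and their difference ran from -0.77 to 3.04. The 2 Klf5 probes gave r = 0.529. All 7 probes were well above background on all 22 arrays, except the second Klf5 probe in the culture with 2i, A83-01 and 4OHT, and none was saturated. Below, the probe with the higher mean level stands for each gene, and the other is given beside it. A further probe, named Gm9971 in the files and a RefSeq synonym of Klf9, fell outside the name rule. It ran from -6.41 to -0.33 and was well above background on 15 of 22 arrays.

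The level of the GC-rich Klf2 probe followed that of other GC-rich probes. Across the 22 arrays it correlated with the median of 63 other probes of 70% G and C or more at r = 0.911, against r = 0.299 for the other Klf2 probe. Over the 12 PGC arrays these values were 0.963 and 0.301, and over the 8 EBRTcH3 arrays 0.771 and 0.406. For Klf4 r was -0.524, for Klf5 0.012 and for Klf9 -0.225 over the 22 arrays. Over the 12 PGC arrays r was -0.733 for Klf4, -0.273 for Klf5 and -0.446 for Klf9. Over the 8 EBRTcH3 arrays the same values were -0.169, 0.357 and -0.31. Klf4 was thus lower on PGC arrays where GC-rich probes were higher. The points share slides and array brightness. Over 27 comparisons between arrays the GC-rich Klf2 probe differed by -2.39 to 3.67, at least 2-fold in 8. With the median difference of its GC class taken off it differed by -0.59 to 1.15, at least 2-fold in 1. The other Klf2 probe was at least 2-fold apart in 8 comparisons and in 7 after the same step, Klf4 in 13 and 14, Klf5 in 6 and 7, and Klf9 in 7 and 7. The main Klf2 values below are given with both probes and, where it bears on them, with this class median.

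**Figure D1:**
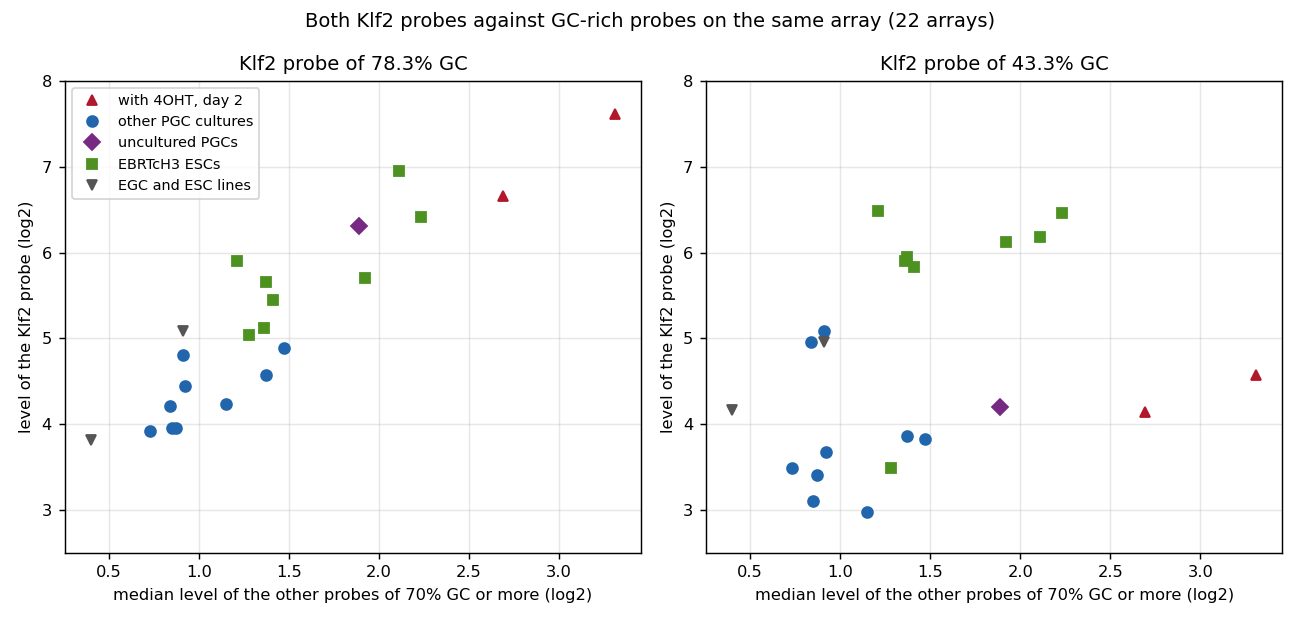
Level of each Klf2 probe (vertical axis, log2 relative to the array's 75th percentile) against the median level of 63 other probes of 70% G and C or more on the same array (horizontal axis, log2). Each of the 22 points is 1 array. The probe of 78.3% lies along a rising band (r = 0.911) and the probe of 43.3% does not (r = 0.299).

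Promoters are shown because some members moved alike across arrays (r = 0.881 for Klf5 and Klf9 and 0.772 for Klf4 and Klf9). Klf2 did not by its GC-rich probe (r = -0.312 with Klf4, 0.229 with Klf5 and 0.01 with Klf9). No correlation with the other members was taken for its other probe. Those of 3 of the 4 members were matched, Klf2, Klf4 and Klf9 but not Klf5. They are 250 bases before the start site from RefSeq (GRCm38.p6), 5′ to 3′ on the gene's strand, with motif matches in capitals. Klf2 lies at chr8:72318812-72319061 (+), Klf4 at chr4:55532476-55532725 (-) and Klf9 at chr19:23140976-23141225 (+).
Klf2: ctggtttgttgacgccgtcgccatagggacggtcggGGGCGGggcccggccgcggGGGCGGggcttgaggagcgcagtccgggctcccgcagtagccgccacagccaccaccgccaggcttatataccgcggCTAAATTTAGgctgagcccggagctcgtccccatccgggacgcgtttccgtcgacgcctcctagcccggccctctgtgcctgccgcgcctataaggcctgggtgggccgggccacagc
Klf4: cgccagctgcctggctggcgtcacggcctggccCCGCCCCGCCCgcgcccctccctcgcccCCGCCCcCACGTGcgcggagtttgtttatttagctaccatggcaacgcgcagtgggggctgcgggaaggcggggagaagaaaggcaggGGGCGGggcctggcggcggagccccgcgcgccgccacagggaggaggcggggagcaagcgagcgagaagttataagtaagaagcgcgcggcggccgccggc
Klf9: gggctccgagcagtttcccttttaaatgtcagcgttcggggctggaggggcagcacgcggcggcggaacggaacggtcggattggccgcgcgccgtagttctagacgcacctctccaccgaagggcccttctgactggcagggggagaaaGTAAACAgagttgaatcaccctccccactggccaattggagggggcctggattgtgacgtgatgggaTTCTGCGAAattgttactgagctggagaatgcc
Motifs were searched on both strands: the GC box GGGCGG that Sp and Krüppel-like factors bind, the E-box CACGTG, a MEF2 element, the FOXO element GTAAACA and the STAT element TTCNNNGAA. The Klf2 window held 2 GC boxes and a MEF2 element from -118 to -109. The Klf4 window held 4 GC boxes, of which 2 overlap, and an E-box from -182 to -177. The Klf9 window held no GC box, a FOXO element from -100 to -94 and a STAT element from -33 to -25. Of 32851 RefSeq promoter windows of that length, 35.7% held a GC box, 8.3% a STAT element, 7.2% the E-box, 3.6% the FOXO element and 3.2% the MEF2 element. These matches are letters in a window and say nothing of binding.

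The first comparison followed PGCs into culture. Klf4 and Klf9 were higher at every later stage up to day 10, Klf5 was higher by its first probe mainly at day 1 than in PGCs and again from day 6, and Klf2 was highest in PGCs by its GC-rich probe. Klf9 had levels of -2.85 in PGCs, -1.19 at day 1, -0.49 at day 2, 0.38 at day 3, 1.32 at day 6, 2.11 at day 10, 2.53 in the EGC line and 2.37 in the ESC line. Its second probe ran alongside, with -2.82, -1.71, -0.92, 0.05, 1.08, 1.80, 2.45 and 1.53 over the same arrays. Day 10, EGCs and ESCs thus stood close together for Klf9, and PGCs stood apart. The EGC line was 41.7-fold above uncultured PGCs (log2 difference 5.38), and 38.8-fold by the second probe.

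Klf4 had levels of 3.00 in PGCs, 3.06 at day 1, 4.03 at day 2, 4.26 at day 3, 4.86 at day 6, 5.55 at day 10, 5.36 in EGCs and 5.14 in ESCs. PGCs and day 1 differed by 0.06, and the 3 highest levels were day 10 and both lines. Klf4 was 5.16-fold higher in EGCs than in PGCs. Klf5 had levels of 0.70 in PGCs, 1.94 at day 1, 2.06 at day 2, 1.71 at day 3, 2.37 at day 6, 3.42 at day 10, 3.64 in EGCs and 2.90 in ESCs, and was 7.68-fold higher in EGCs than in PGCs. Its second probe differed in this order: it stood at -2.46 in PGCs, -3.95 at day 1, -3.72 at day 2, -4.47 at day 3, -3.12 at day 6, -2.93 at day 10 and -1.91 in EGCs, so its EGC level was 0.55 above that of PGCs. The ESC value of that probe was -4.33.

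The GC-rich Klf2 probe had levels of 6.31 in PGCs, 3.92 at day 1, 3.95 at day 2, 4.45 at day 3, 4.21 at day 6, 4.81 at day 10, 5.08 in EGCs and 3.82 in ESCs. The other probe had 4.20, 3.49, 3.41, 3.68, 4.96, 5.09, 4.96 and 4.16. Both probes were lower at day 1 than in PGCs, by 2.39 and by 0.71. Markers of other cells of the embryo differed between the same arrays. Of 9 blood markers 2 were well above background at day 1, against 6 in PGCs, and the log2 of their summed level was -0.53, against 5.62. In PGCs this included embryonic globins, with Hbb-y at 4.77, while Ptprc and Laptm5 were not well above background. The summed level of 10 endothelial markers was 1.33 at day 1, against 3.26 in PGCs, and that of 8 gonadal somatic markers 0.16, against 1.31. The endothelial value was 3.57 in the EGC line and 2.84 in the ESC line, so it does not tell PGCs from these lines. In the EGC and ESC lines the gonadal somatic value was -0.71 and -0.08, and the blood value 2.64 and 1.11. In EGCs, against PGCs, 5 of 7 measured blood markers were lower by 2-fold or more, and their median difference was -5.55. Of all genes 41.1% were at least 2-fold apart in either direction there. The part of such cells in the member values of PGCs was not tested. The Klf2 probes differed in sign between EGCs and PGCs, at -1.23 for the GC-rich probe and 0.76 for the other. The median of probes of 70% G and C or more differed by -1.80 at day 1 against PGCs and by -1.10 in EGCs against PGCs. With the class medians taken off, day 1 stood 0.59 below PGCs by the GC-rich probe and 0.13 below by the other, and EGCs stood at -0.13 and 1.07 relative to PGCs.

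**Figure D2:**
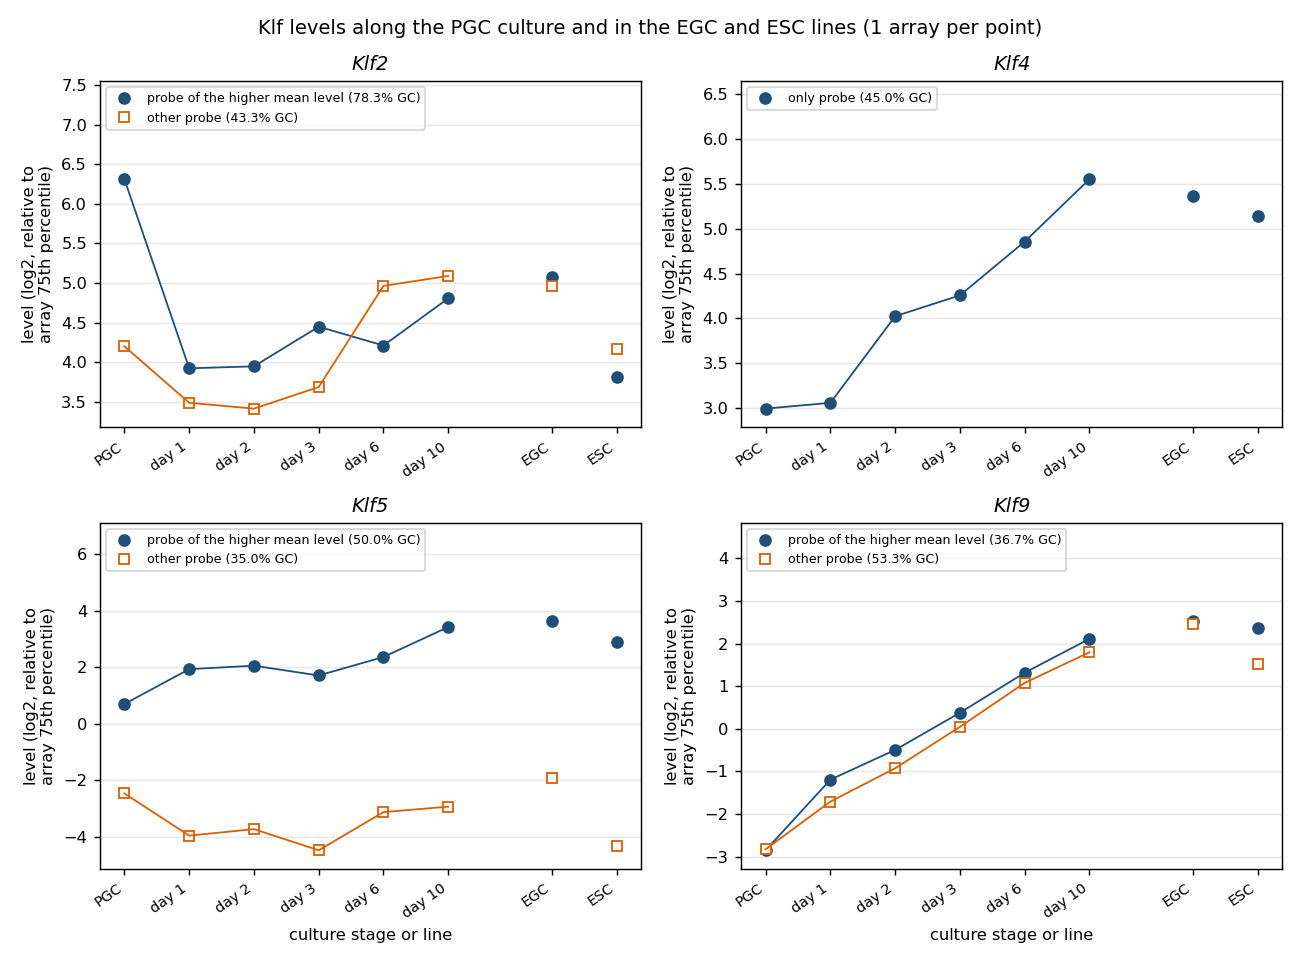
Level of each Klf gene (vertical axis, log2 relative to the array's 75th percentile) along the PGC culture and in the EGC and ESC lines (horizontal axis). Each point is 1 array, and squares are the second probe of a gene. Klf9 reads -2.85 in PGCs and 2.11 at day 10, and the 2 Klf2 probes part most in PGCs.

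All 4 members were at least 2-fold apart between EGCs and PGCs, where 41.1% of all genes were, and between PGCs and the mean of the EGC, ESC and parental EBRTcH3 lines, where 33.1% were. Against those lines PGCs stood 1.20 higher for Klf2 and differed by -1.86 for Klf4, -2.74 for Klf5 and -5.28 for Klf9. The other Klf2 probe and the second Klf5 probe had the opposite sign, at -0.995 and 0.52. GC-rich probes stood 0.81 higher in PGCs. At day 1 against PGCs 3 of 4 members were at least 2-fold apart, Klf5 and Klf9 higher and Klf2 lower, where 48.9% of all genes were that far apart. These values chose the genes, so nothing is read from the share. Day 10 and day 1 lay on 1 slide, and there Klf9 was 9.86-fold and Klf4 5.61-fold higher at day 10, and Klf5 was higher by 1.49 and Klf2 by 0.88 (1.60 by its other probe). That made 3 of 4 members at least 2-fold higher, against 33.2% of all genes apart in either direction. Day 6 and day 3 also shared a slide. Klf9 was higher at day 6 by 0.94, Klf5 by 0.65 and Klf4 by 0.60, and Klf2 differed by -0.24 or, by its other probe, 1.28. None of the 4 was at least 2-fold apart by its main probe there, against 19.6% of all genes. Day 2 with bFGF against day 1, on 1 slide, had 0 of 4 members 2-fold apart (9.09% of all genes), with Klf4 higher by 0.77 and Klf9 by 0.68. Day 2 with 2i and A83-01 against day 1 also had 0 (8.79%), with Klf4 higher by 0.96 and Klf9 by 0.70. Day 3 against day 2 had 0 (9.45%), with Klf9 higher by 0.87 and Klf5 lower by 0.35. Day 10 against day 6 had 1 (17.3%), Klf5, higher by 1.06. Between EGCs and day 10 no member differed by 2-fold (12% of all genes), and between EGCs and ESCs only Klf2, by 1.26 (19.0%). GC-rich probes stood 0.75 higher in EGCs than in ESCs. The second Klf5 probe was 2.42 higher in EGCs than in ESCs.

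The median level of the naive pluripotency partners (13 measured genes) fell from 1.92 in PGCs to 1.16 at day 3, while Klf4 and Klf9 rose. They were higher, as Klf4 and Klf9 were, from day 3 to day 6. There 12 of 13 were at least 2-fold higher, with a median difference of 1.71, where 19.6% of all genes were apart in either direction. Against day 1, 12 of 13 were at least 2-fold higher at day 10 and 1 lower, median 1.70 (33.2% of all genes apart). Between EGCs and PGCs 10 of 13 were higher and 1 lower, with a median of 1.67. Tbx3, a T-box factor of the naive network, stood 5.62 higher in EGCs, the Nodal co-receptor Tdgf1 5.12 and the nuclear receptor Nr0b1 4.30. In the LIF and STAT3 pathway 6 of 13 were higher and 2 lower, led by the NF-kappa-B cofactor Bcl3 (5.56) and the feedback inhibitor Socs3 (3.08). Other Krüppel-like factors did not share 1 direction: 4 of 13 were at least 2-fold higher in EGCs, among them Klf3 (3.17 in EGCs against 0.67 in PGCs) and Klf15 (0.49 against -1.26), and Klf6 was lower (3.28 against 6.24). All 12 immediate early genes were lower in EGCs than in PGCs, with a median of -3.17. The counts for EGCs against PGCs stand against 41.1% of all genes at least 2-fold apart between them.

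The day 2 cultures were compared next. Relative to bFGF alone, 4OHT went with higher Klf2 and lower Klf4, and the GSK inhibitor with lower Klf4, while Klf5 and Klf9 moved little. Klf4 had levels of 2.30 with 2i, A83-01 and 4OHT, 1.93 with 4OHT, 4.03 with 2i and A83-01, 2.60 with the GSK inhibitor, 3.70 with the MEK inhibitor and 3.62 with A83-01, against 3.83 with bFGF alone. The 2 arrays with 4OHT and the array with the GSK inhibitor alone were the lowest. These arrays were also dimmer than that of bFGF alone. The 75th percentile was 123.8 with 2i, A83-01 and 4OHT, 252.8 with 4OHT and 476 with the GSK inhibitor, against 708. The part of brightness in the Klf4 values was not tested. Klf4 was 3.74-fold lower with 4OHT than with bFGF, a difference of -1.90, and 1.73 lower on the log2 scale when 4OHT was added to 2i and A83-01. The median of all genes was itself shifted, by 0.58 for the 4OHT term over the 7 arrays and by 0.06 under quantile normalization. Relative to the median of all genes between the 4OHT and bFGF arrays, Klf4 stood at -2.22, Klf2 at 2.38 and, by its other probe, 0.73, Klf5 at 0.24 and Klf9 at -0.86.

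With the GSK inhibitor Klf4 was 2.35-fold lower than with bFGF alone, across slides. On 1 slide it stood 1.10 lower with the GSK inhibitor than with the MEK inhibitor and 1.02 lower than with A83-01. With the GSK inhibitor inside 2i and A83-01, on the slide of the bFGF array, Klf4 was not lower: 4.03 against 3.83 with bFGF alone. The additive GSK term over all 7 arrays was -0.57 for Klf4, 0.44 for Klf2, 0.25 for Klf5 and -0.12 for Klf9, and the 4OHT term was -1.48 for Klf4, 2.78 for Klf2, 0.06 for Klf5 and -0.54 for Klf9. Neither term was tested. The GSK term turned on single arrays. Without the GSK inhibitor array it was 0.54 for Klf4 and -0.90 for Klf2, and without the array of either the MEK inhibitor or A83-01 it was -1.19 and 1.17. The 4OHT term of Klf5 was -0.47 without the array of 4OHT alone and 0.50 without that of 2i, A83-01 and 4OHT.

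The GC-rich Klf2 probe had levels of 7.61 with 2i, A83-01 and 4OHT, 6.66 with 4OHT, 3.95 with 2i and A83-01, 4.89 with the GSK inhibitor, 4.57 with the MEK inhibitor and 4.24 with A83-01, against 3.96 with bFGF alone. The other probe had 4.57, 4.14, 3.41, 3.83, 3.86 and 2.97, against 3.1 with bFGF alone. On both probes the 2 arrays with 4OHT were the highest. Between 4OHT and bFGF the difference was 2.69, or 6.47-fold, by the GC-rich probe and 1.04, or 2.05-fold, by the other. Probes of 70% G and C or more differed by a median of 1.86, and 76.1% of 67 of them were at least 2-fold higher, where the class of 40 to 50% had a median of 0.30. With the class median taken off, Klf2 stood 0.83 higher by the GC-rich probe and 0.74 by the other. For 4OHT added to 2i and A83-01 the differences were 3.67 and 1.16, and the GC-rich class median was 2.52. With the GSK inhibitor against bFGF they were 0.93 and 0.73, and 0.07 and 0.65 with the class medians taken off.

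Klf5 had levels of 1.61 with 2i, A83-01 and 4OHT, 2.24 with 4OHT, 2.06 with 2i and A83-01, 2.18 with the GSK inhibitor, 1.68 with the MEK inhibitor and 1.78 with A83-01, against 1.69 with bFGF alone, a range of less than 2-fold. Its second probe stood 2.58 higher with A83-01 than with bFGF (-1.58 against -4.17), where the first differed by 0.09. Klf9 had levels of -0.96 with 2i, A83-01 and 4OHT, -1.06 with 4OHT, -0.49 with 2i and A83-01, -0.58 with the GSK inhibitor, -0.32 with the MEK inhibitor and -0.44 with A83-01, against -0.51 with bFGF alone. Its second probe ran from -1.02 to -0.58. By the first probe the 2 arrays with 4OHT were the lowest, 0.55 below bFGF and 0.46 below 2i and A83-01, while the second probe differed by -0.07 and 0.35.

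**Figure D3:**
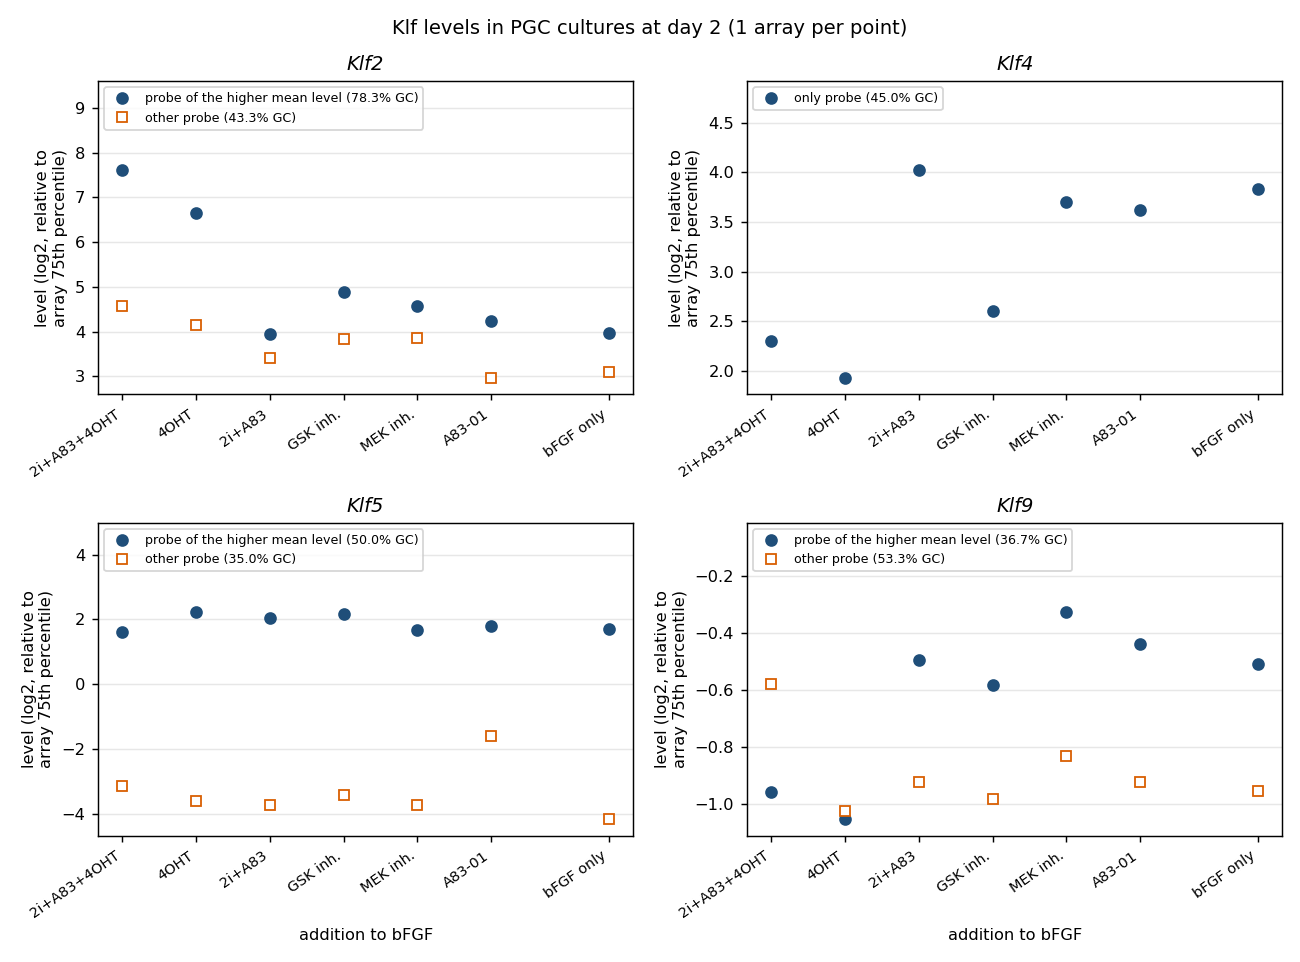
Level of each Klf gene (vertical axis, log2 relative to the array's 75th percentile) in the 7 PGC cultures at day 2 (horizontal axis, addition to bFGF). Each point is 1 array, and squares are the second probe of a gene. Klf4 reads 2.30, 1.93 and 2.60 on the 2 arrays with 4OHT and the array with the GSK inhibitor, against 3.83 with bFGF alone.

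Of the 4 members, 2 were at least 2-fold apart between 4OHT and bFGF (37.6% of all genes), 1 between the GSK inhibitor and bFGF (18.4%), and 2 between 2i, A83-01 and 4OHT and 2i and A83-01 (51.2%). These contrasts chose the members, so nothing is read from the shares. None was 2-fold apart for the MEK inhibitor (9.87%), A83-01 (13.0%) or 2i with A83-01 (3.91%) against bFGF by its main probe. On the slide of the single inhibitors, 1 member (Klf4) was 2-fold apart between the GSK and MEK inhibitors (9.25%) and between the GSK inhibitor and A83-01 (15.2%), and 0 between A83-01 and the MEK inhibitor (9.35%). Klf5 differed by 0.39 between the GSK inhibitor and A83-01, and its second probe by -1.82. On the 4OHT slide 0 were apart between 2i, A83-01 and 4OHT and 4OHT alone (13.4%), with Klf2 higher by 0.96 and Klf5 lower by 0.63. GC-rich probes stood 0.81 higher there, and the other Klf2 probe 0.43.

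The terms for the MEK inhibitor and A83-01 were not used to choose the genes and were tested. The MEK term was 0.12 for Klf2 (SE 0.45), 0.52 for Klf4 (SE 0.37), -0.24 for Klf5 (SE 0.33) and 0.14 for Klf9 (SE 0.26). The A83-01 term was -0.22 for Klf2, 0.44 for Klf4, -0.14 for Klf5 and 0.02 for Klf9, with the same standard errors. No member passed in limma's test, with Benjamini-Hochberg adjusted p = 1 for each. Of 19097 genes tested, 0 passed for either term, and 616 for the MEK inhibitor and 703 for A83-01 had an unadjusted p under 0.05. The fit left 2 residual degrees of freedom, and takes each single array to vary as much as the rest. It held no slide term. The single-inhibitor arrays lay on 1 slide, and the arrays of bFGF alone and of 2i and A83-01 on another. Slide and inhibitor are therefore partly mixed in these terms. Leaving out 1 array turned the sign of 6 of these terms. The MEK term of Klf2 was -1.22 without the MEK inhibitor array, and that of Klf4 was -0.0865 without the array of either the GSK inhibitor or A83-01. The A83-01 term was 0.52 for Klf2 and -0.17 for Klf4 without the array of either the MEK or the GSK inhibitor, 0.0163 for Klf5 without either 4OHT array, and -0.098 for Klf9 without the A83-01 array.

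Klf4 at day 2 was lower on the arrays with lower fibroblast and higher epithelial markers. The median of 10 fibroblast markers was -4.14 with 2i, A83-01 and 4OHT, -2.08 with 4OHT, 1.76 with 2i and A83-01, -0.33 with the GSK inhibitor, 0.48 with the MEK inhibitor and 0.32 with A83-01, against 1.71 with bFGF alone. The log2 of their summed level was 1.85 with 2i, A83-01 and 4OHT, 3.13 with 4OHT, 5.35 with the GSK inhibitor, 6.95 with the MEK inhibitor and 6.50 with A83-01, against 8.15 with bFGF alone. Of the fibroblast markers 8 of 10 were at least 2-fold lower with 4OHT than with bFGF, and 7 of 10 with the GSK inhibitor. Of all genes 37.6% and 18.4% were that far apart in either direction. Pdgfra and Pdgfrb were not well above background with 4OHT, and only Dcn, Col1a2 and Col3a1 were so with 2i, A83-01 and 4OHT. The median of 12 epithelial markers was 2.58 with 2i, A83-01 and 4OHT, 1.89 with 4OHT, 0.18 with 2i and A83-01, 1.02 with the GSK inhibitor, -0.34 with the MEK inhibitor and 0.03 with A83-01, against -0.25 with bFGF alone. The median of 10 PGC markers was 1.54 with 2i, A83-01 and 4OHT, 1.64 with 4OHT and 1.37 with 2i and A83-01. It was 0.78 with the GSK inhibitor, 0.42 with the MEK inhibitor and -0.79 with A83-01, against 1.06 with bFGF alone. The part of any of these cells in the Klf4 and Klf2 values was not tested.

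**Figure D4:**
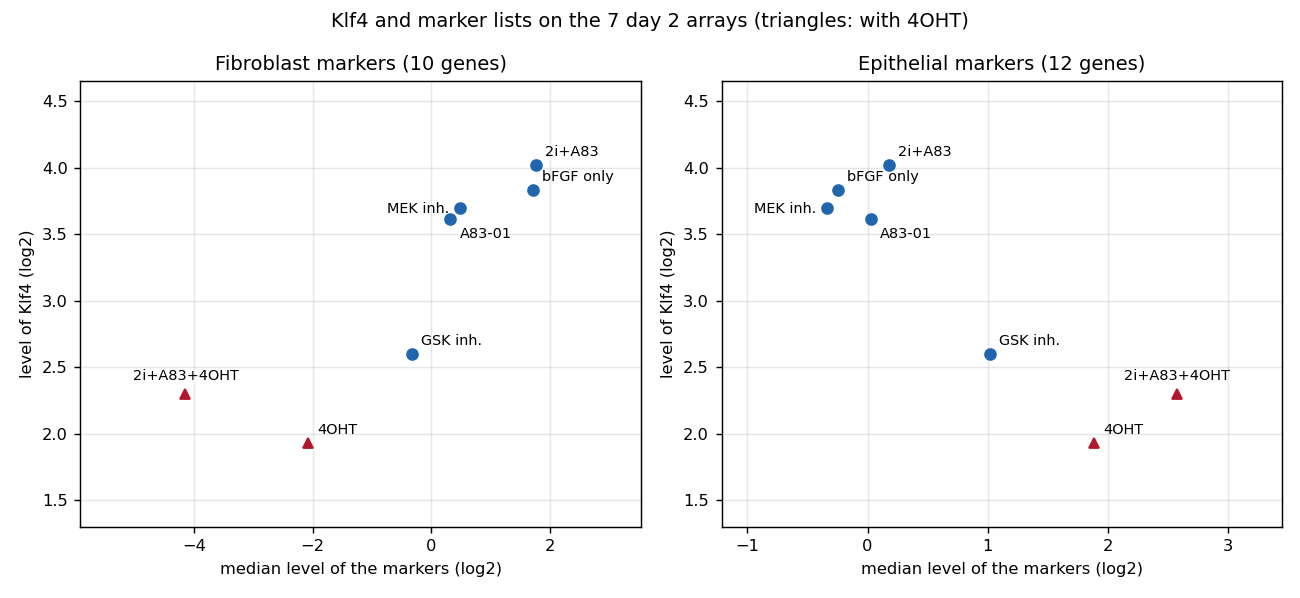
Level of Klf4 (vertical axis, log2 relative to the array's 75th percentile) against the median level of fibroblast markers (left) and epithelial markers (right) on the 7 day 2 arrays. Each point is 1 array, and triangles are arrays with 4OHT. The 3 arrays lowest in Klf4 (1.93, 2.30 and 2.60) are those lowest in fibroblast and highest in epithelial markers.

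Genes of related pathways gave mixed counts for 4OHT against bFGF, where 37.6% of all genes were at least 2-fold apart in either direction. Of 13 naive partners 3 were at least 2-fold higher and 0 lower, with Nr0b1 at 2.78, Zfp42 at 1.37 and Tdgf1 at 1.16. In the LIF and STAT3 pathway 1 of 13 was higher and 4 lower, with the kinase Jak1 at -2.60. Of 12 FOXO targets under AKT 3 were higher and 3 lower, among them the repressor Bcl6 (-2.06), the stress gene Sesn3 (1.27) and the cyclin Ccng2 (1.23). Of the glucocorticoid and thyroid hormone genes 1 of 10 was higher and 3 lower, with the receptors Thra at -2.09 and Nr3c1 at -1.76. Of 12 other Krüppel-like factors 2 were higher, Klf17 by 1.51 and Klf15 by 1.23. For the GSK inhibitor 4 of 12 Wnt targets were higher and 0 lower, where 18.4% of all genes were apart. The transcription factor Sp5 differed by 2.32 and the ligase Rnf43 by 1.32. The median Wnt target level was -2.72 with the GSK inhibitor, against -3.54 with bFGF. The log2 of their summed level was 3.83, against 3.49 with bFGF. It was 4.01 with the MEK inhibitor, 4.83 with A83-01 and 3.30 with 2i and A83-01. ERK feedback genes had a median level of 1.90 with the MEK inhibitor, against 1.84 with bFGF. With A83-01, where 13.0% of all genes were apart, 6 of 13 naive partners were lower, with a median of -0.94.

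Forced expression in EBRTcH3 ESCs was not used to choose the genes. The lowest Klf4 level of these 8 arrays was with Nanos3, and no member passed the test for any construct. The spread in that test comes from the other arrays within their slides, so it holds effects of other constructs. A failure to pass therefore does not show that a construct had no effect. The slide of Nanos3, Nanos2 and Dnd held no parental or GFP array. Klf4 stood at 5.48 with Prdm14 and 4.99 with Vasa, against 4.08 in parental cells of the same slide. On the second slide it stood at 2.28 with Nanos3, against 4.87 with Nanos2 and 5.19 with Dnd. It stood at 3.51 with Blimp-1, against 4.92 with GFP. The Nanos3 difference of -2.75 (SE 0.76) had a Benjamini-Hochberg adjusted p = 0.362 in limma, and between 0.2 and 0.485 over the other settings that kept all arrays.

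The second Klf2 probe was low with Nanos3, as Klf4 was: it stood at 3.49, against 5.95 with Nanos2 and 5.83 with Dnd, a difference of -2.39 (SE 0.40). Its adjusted p in limma was 0.192, and over the other settings that kept all arrays the adjusted p of Klf2 lay between 0.453 and 0.946. The GC-rich probe differed by -0.51, at 5.04 with Nanos3, against 5.66 with Nanos2 and 5.45 with Dnd. Klf9 stood at 1.27 with Nanos3, against 2.52 with Nanos2 and 2.62 with Dnd, a difference of -1.30 (SE 0.71, adjusted p = 0.651 in limma). Its second probe read 0.97, against 2.21 and 2.18. Klf5 stood at 3.25 with Nanos3, against 3.26 with Nanos2 and 4.20 with Dnd.

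With Vasa, the DEAD-box helicase of germ cells, Klf5 had its highest level of all arrays, 4.95, against 3.78 in parental cells and 3.62 with Prdm14 on the same slide. The difference of 1.25 (SE 0.53) had an adjusted p = 1 in limma, and the second probe gave 1.30. With Prdm14, a PR-domain regulator of PGCs, Klf2 differed from the other arrays of the slide by -0.94, Klf4 by 0.95, Klf5 by -0.75 and Klf9 by 1.04, with adjusted p from 0.716 to 0.827 in limma. Klf9 stood at 3.44 with Prdm14, its highest level, against 2.39 in parental cells. GC-rich probes stood 1.11 lower with Prdm14 than in parental cells. The other Klf2 probe differed from parental cells by -0.57 with Prdm14 and -0.34 with Vasa, where Klf4 differed by 1.40 and 0.92. With Blimp-1 the GC-rich Klf2 probe read 6.95, against 5.90 with GFP, and the other probe 6.18, against 6.49. GC-rich probes stood 1.02 higher with Blimp-1 than with GFP. Klf9 stood at 1.47 with Blimp-1, against 2.90 with GFP, and its second probe at 1.24, against 2.32. Blimp-1 and GFP lay on 1 slide, so each of these is a difference of 2 arrays, and the limma adjusted p was 1 for the 4 members with Blimp-1, Nanos2, Dnd and Vasa.

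**Figure D5:**
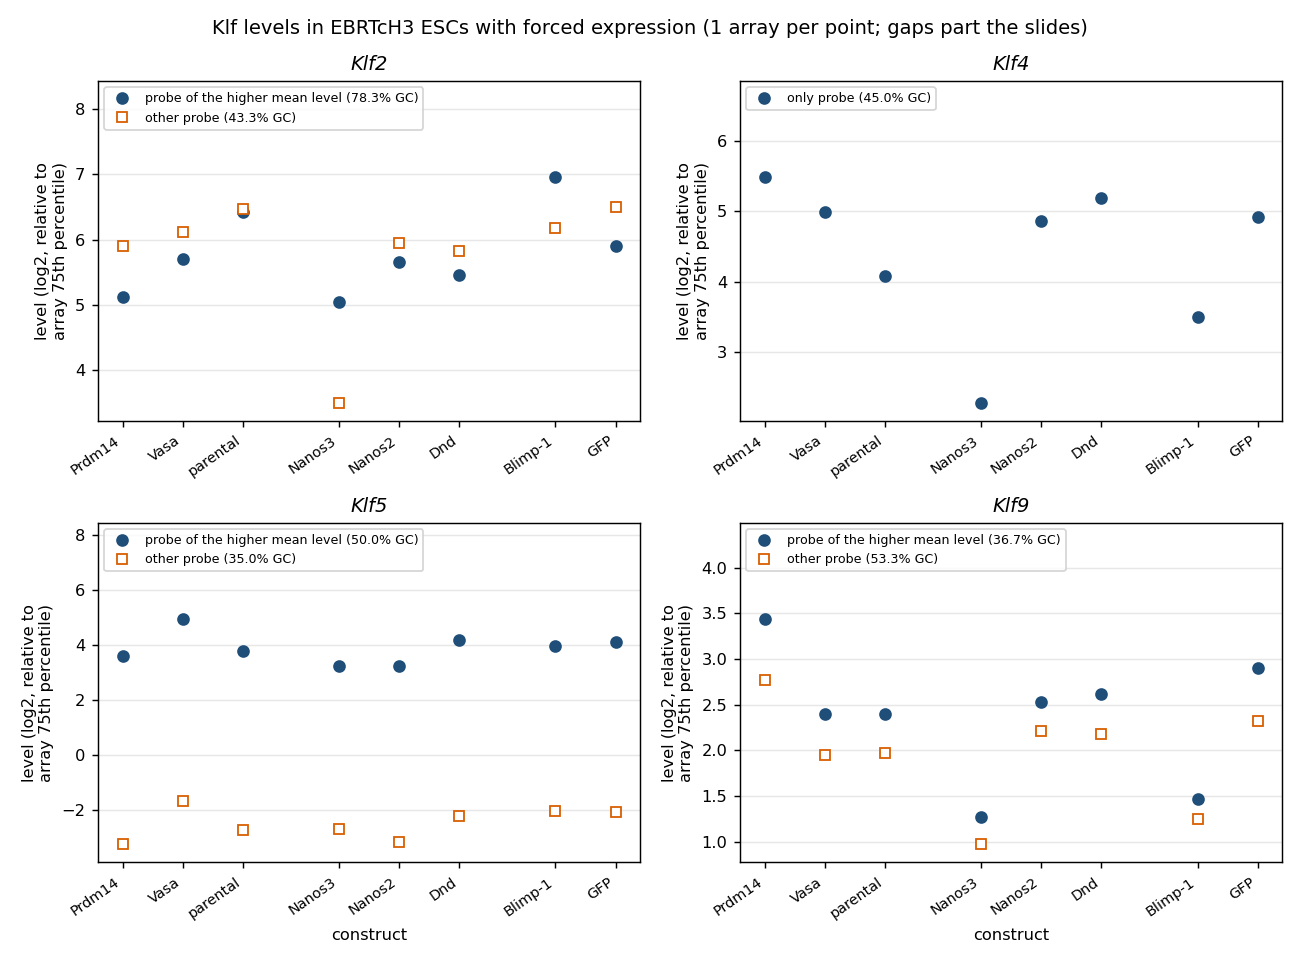
Level of each Klf gene (vertical axis, log2 relative to the array's 75th percentile) in EBRTcH3 ESCs by construct (horizontal axis, grouped by slide). Each point is 1 array, and squares are the second probe of a gene. Klf4 reads 2.28 with Nanos3, against 4.87 and 5.19 with Nanos2 and Dnd on the same slide.

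Of 19271 genes tested, 2 passed for Dnd (0.0104%), neither a member, and 0 for Prdm14, Vasa, Nanos2, Nanos3 and Blimp-1. Genes with an unadjusted p under 0.05 numbered 1202 for Prdm14, 533 for Vasa, 560 for Nanos2, 1764 for Nanos3, 428 for Dnd and 930 for Blimp-1. At least 2-fold differences by the main probes, with no test, were seen for 2 of 4 members with Nanos3 against Nanos2 and Dnd (17.7% of all genes). With Blimp-1 against GFP they were seen for 3 of 4 (15.8%). Against parental cells 3 of 4 members were that far apart with Prdm14 (29.1% of all genes) and 1 with Vasa (17.9%). With Blimp-1 and Prdm14 the 3 include Klf2 by its GC-rich probe, at 1.05 and -1.30. With the class median taken off it stood at 0.03 and -0.19, and its other probe differed by -0.31 and -0.57. Against the other constructs of their slide 1 was apart with Nanos2 (10.9%) and 1 with Dnd (7.04%), Klf4 in both. The low Nanos3 array stands on the other side of both, and Nanos2 differed from Dnd by -0.32 for Klf4 when Nanos3 was left out. In the Nanos3 cells 10 of 13 naive partners were at least 2-fold lower and 0 higher, with a median of -1.94: Nr0b1 differed by -3.52, Tbx3 by -3.01 and the AKT co-activator Tcl1 by -2.99. Epithelial markers were at least 2-fold higher for 6, with a median difference of 0.89. The part of the cell makeup in the Klf values was not tested. Of 13 other Krüppel-like factors 1 was higher and 3 lower with Nanos3, with Klf15 at -2.26, Klf7 at 1.97 and Klf8 at -1.61.

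Across the 22 arrays Klf5 and Klf9 were correlated at r = 0.881, Klf4 and Klf9 at 0.772, Klf4 and Klf5 at 0.563, Klf2 and Klf4 at -0.312, and Klf2 and Klf9 at 0.01. Over the 7 day 2 arrays Klf2 and Klf4 gave -0.879, and over the 8 EBRTcH3 arrays Klf4 and Klf9 gave 0.91. These are descriptions with no test, and Klf2 is by its GC-rich probe.

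Among 13239 genes well above background on at least 11 arrays, those most like each member over the 22 arrays by Pearson r were as follows. For Klf9 they were Zfp57 (0.967), Dnajb6 (0.962) and Adam23 (0.953), and the second Klf9 probe gave the same 3. For Klf5 they were Zfp654 (0.948), Tyk2 (0.941) and Mthfd1l (0.932), and for Klf4 Xpnpep1 (0.895), Nsf (0.884) and Zfp229 (0.875). The GC-rich Klf2 probe was most like Rusc1 (0.995), Dusp8 (0.994) and H1f10 (0.983), whose probes have 73.3, 86.7 and 71.7% G and C. The other Klf2 probe was most like Stmn3 (0.962), Zfp42 (0.956) and Nr0b1 (0.945), whose probes have 41.7, 38.3 and 35%. Zfp42 encodes the pluripotency marker Rex1.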

How the data were processed

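Total RNA of 22 samples was labelled with Cy3 and hybridised to 1-colour Agilent mouse arrays. Per the file headers and the submitters' processing notes, the authors read each array with Feature Extraction 10.7.3.1, and probe positions refer to mm9. Each deposited spot value is an intensity from which the scanner software had subtracted background, with no step between arrays. The deposited value table holds the same intensities, with a median ratio of 1 to the scanner values, and was used as an alternative. No centring was found in it. Columns of no sample numbered 0.

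Outlier and control spots were left out and repeat spots averaged. The level is log2 of the intensity minus log2 of the array's 75th percentile. The 41174 probes were named through RefSeq by accession (26918), symbol (5082) or synonym (816), and 8358 kept the file's name. The probe of the highest mean level stood for each gene, and 8714 genes had several probes.

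Two-sided tests were run in R 4.3.3 with limma 3.58.1, on genes well above background on at least 1 array of the fit, and called genes at a Benjamini-Hochberg adjusted p under 0.05. The day 2 fit had 4 additive terms over 7 arrays and no slide term. The 8 EBRTcH3 arrays were fitted once for each of 6 constructs, with a fixed slide effect. With 1 array per group, p-values measure only the spread between these arrays, and precision is limited by their number. Other differences are between 2 arrays or their means, with 2-fold as the size named. The fits were tested on simulated data.

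The members, lists and comparisons were chosen with earlier results of these data known. The named genes are the 4 members, the 3 genes most like each probe and up to 3 genes of a list with the largest difference in a comparison. Motifs and the step that takes off the median of a probe's GC class (under 40, 40 to under 50, 50 to under 60, 60 to under 70, 70% or more) were added after the values were seen. Alternatives were quantile normalization, normexp background with an offset of 50, no filter, the mean over a gene's probes, each probe alone, the value table, slide terms and leaving out arrays.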

Additional observations from a re-analysis of the deposited data

Results flagged for a closer look

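Klf5 by its first probe and Klf2 by its GC-rich probe only differed in sign between matched backgrounds. These differences between differences were not tested. By its GC-rich probe, Klf2 differed by -0.02 when 2i and A83-01 were added to bFGF and by 0.96 when they were added to 4OHT. The value of -0.02 is close to no difference. With the median of its GC class taken off, the Klf2 values were -0.06 and 0.14. The other Klf2 probe gave 0.31 and 0.43, the same sign in both. Klf5 differed by 0.36 with 2i and A83-01 added to bFGF and by -0.63 with them added to 4OHT, or by 0.38 and -1.08 with the median of its GC class taken off. In the same way, Klf5 differed by 0.55 with 4OHT added to bFGF and by -0.44 with 4OHT added to 2i and A83-01, or by 0.06 and -1.43 with the class median taken off. The second Klf5 probe differed by 0.44 with 2i and A83-01 and by 0.55 with 4OHT, each added to bFGF, and was not well above background on the array with all additions. Each value is a difference of 2 arrays without replicates, and the array with all additions was the dimmest of the 22. The part of brightness was not tested.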

How the results depend on the processing

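No paired analysis was possible because each group was 1 array and the labels give no replicate numbers to pair groups by. Counts of genes past the threshold moved by over 1.5 times under other settings. For the MEK inhibitor 21 genes passed with normexp and 761 with slide in place of 4OHT, for A83-01 9 and 653. With quantile normalization 61 passed for Prdm14, 23 for Vasa, 57 for Nanos2, 16 for Nanos3, 105 for Dnd and 178 for Blimp-1. With normexp 1 passed for Prdm14, 4 for Nanos3 and 0 for Dnd. Without a filter 4 passed for Dnd. With no slide term 3 passed for Prdm14, 28 for Nanos2, 53 for Nanos3, 68 for Dnd and 164 for Blimp-1. Leaving out 1 array gave 0 to 2150 for the MEK inhibitor (2150 without its own array, 804 without the GSK inhibitor, 677 without A83-01, 98 without bFGF), 0 to 1707 for A83-01 (1707 without its own array, 1197 without the GSK inhibitor, 1140 without the MEK inhibitor, 72 without bFGF), 0 to 1 for Dnd, and 0 to 0 for the other constructs. Without 1 day 2 array 1 residual degree of freedom was left. No member passed under these settings.

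Signs of tested terms, and of differences of at least 2-fold, reversed as follows. For day 1 against PGCs Klf5 was -0.13 over all probes and -1.49 by its second probe. By their second probes, EGCs against PGCs gave 0.76 for Klf2, PGCs against 3 lines gave 0.52 for Klf5 and -0.995 for Klf2, Blimp-1 against GFP gave -0.31 for Klf2 and 0.0513 for Klf5, and the A83-01 term of Klf5 was 1.40, or 0.63 over all probes. The MEK term of Klf2 was -0.23 with normexp. With no slide term Klf9 was 0.0277 for Vasa, Klf2 was -0.14 for Nanos2 and -0.38 for Dnd, and Klf5 was 0.0797 for Blimp-1. Leaving out 1 array gave -1.22 to 0.85 for Klf2 and -0.0865 to 1.64 for Klf4 in the MEK term. For A83-01 it gave -1.55 to 0.52 for Klf2, -0.17 to 1.55 for Klf4, -0.25 to 0.0163 for Klf5 and -0.10 to 0.0907 for Klf9. For Vasa it gave -0.72 to 0.58 for Klf2, -0.49 to 0.92 for Klf4 and -1.04 to 0.005 for Klf9. For Nanos2 it gave -0.32 to 2.59 for Klf4, -0.94 to 0.0046 for Klf5 and -0.0932 to 1.25 for Klf9, and for Dnd -0.21 to 0.41 for Klf2. The cause was not tested. Of the untested terms, leaving out 1 array gave -1.19 to 0.54 for Klf4 and -0.90 to 1.17 for Klf2 in the GSK term and -0.47 to 0.50 for Klf5 in the 4OHT term. Differences under 2-fold also changed sign between probes, as for Klf2 in EGCs against day 10 (0.28 and -0.13) and with A83-01 against bFGF (0.27 and -0.13).

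The 4OHT term of Klf2 was 1.95 with quantile normalization, 1.60 with normexp and 0.89 by the second probe, and that of Klf4 lay between -2.23 and -1.48 over all settings that kept 7 arrays. Taking off the GC class median moved 16 of 108 differences by over 1.5 times and turned the sign of 0 that were at least 2-fold. Smaller ones changed sign, as for Klf2 with the MEK inhibitor (0.61 and -0.05) and A83-01 (0.27 and -0.14) against bFGF, and Klf5 with Prdm14 against parental cells (-0.16 and 0.21). With slide as a term 4OHT has no value, and Blimp-1 without GFP could not be fitted. Signal over background limits the second Klf5 probe, whose levels lay between -4.47 and -1.58.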
